A study of Mus musculus with 7 samples.

Results

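The Hox genes of the mouse were examined in sorted Paneth cells (PCs), granule-rich secretory cells found in the crypt bottoms of the small intestine, after injection of tumour necrosis factor (TNF) or phosphate-buffered saline (PBS). Members were taken by a rule on names: every gene whose symbol is Hoxa, Hoxb, Hoxc or Hoxd followed by a number. This group of genes was chosen with earlier results of these data known. The rule gave 39 genes among the 55414 gene identifiers of the count table, and all 39 were in the table. In the GRCm39 build, 11 of them formed the HoxA cluster (chr6:52132570-52237822, minus strand), 10 the HoxB cluster (chr11:96085106-96259082, plus strand), 9 the HoxC cluster (chr15:102829538-102945278, plus strand) and 9 the HoxD cluster (chr2:74498654-74595486, plus strand).

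The PBS group held 3 libraries and the TNF group 4, each per the series description from a different mouse of the C57BL/6J strain, with small intestines taken 15 h after the injection. No genetic change is given for either group, and the dose, sex, age, sort markers, intestinal segment and collection days are not stated, which leaves no batch to examine. Total counts per library ran from 15511455 to 19193721. As a check of the treatment label, Tnfaip3, an inhibitor of NF-kB signalling that NF-kB itself induces, was at 14.7 to 16.4 CPM (counts scaled to 1e6 after TMM scaling of library sizes, the trimmed mean method of edgeR) in the PBS libraries and at 324.5 to 404.0 CPM in the TNF libraries. The 10 PC markers examined, which include lysozyme (Lyz1) and alpha-defensins, summed to 167590 to 271917 CPM with PBS and to 161419 to 289581 CPM with TNF. Markers of the labelled cell type were thus abundant in every library, most of each sum being Lyz1 and the alpha-defensin Defa24. In the test given below, 2 of the 10 were called higher with TNF (Mmp7 and Nupr1), 2 lower (Clps and Habp2) and 6 were not called. Over all tested genes, 29.5% were called higher and 30.1% lower.

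Hox genes encode transcription factors that bind DNA through a homeodomain. Within a cluster the genes are arranged in the order in which they are used along the head-to-tail axis, from low paralogue numbers (anterior) to high paralogue numbers (posterior), and genes with the same number in different clusters are paralogues of common origin. In the gut the combination of Hox genes that a cell expresses differs between segments, and mesenchymal cells are known for higher Hox transcript levels than the epithelium. HoxB genes lie on the chromosome with the posterior end first, from Hoxb13 and Hoxb9 to Hoxb1.

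Promoter windows of Hoxb8 and Hoxb4 are shown because these were the members called differentially expressed for which RefSeq promoter sequences were at hand, and because the windows differ in base composition. Each runs from 250 bases before to 50 bases after the gene start in the GRCm38.p6 build of RefSeq, plus strand, at chr11:96281655-96281954 for Hoxb8 and chr11:96318017-96318316 for Hoxb4. Capitals mark the letters TTTAT on either strand, which are the core of the sites that Cdx proteins, upstream regulators of Hox genes in the gut, are known to bind.
Hoxb8: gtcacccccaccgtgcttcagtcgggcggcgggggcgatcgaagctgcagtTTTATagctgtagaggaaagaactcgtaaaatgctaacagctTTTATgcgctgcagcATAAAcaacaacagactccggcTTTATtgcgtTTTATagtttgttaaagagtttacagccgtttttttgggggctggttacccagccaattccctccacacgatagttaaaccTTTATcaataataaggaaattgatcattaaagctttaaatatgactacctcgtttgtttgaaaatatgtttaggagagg
Hoxb4: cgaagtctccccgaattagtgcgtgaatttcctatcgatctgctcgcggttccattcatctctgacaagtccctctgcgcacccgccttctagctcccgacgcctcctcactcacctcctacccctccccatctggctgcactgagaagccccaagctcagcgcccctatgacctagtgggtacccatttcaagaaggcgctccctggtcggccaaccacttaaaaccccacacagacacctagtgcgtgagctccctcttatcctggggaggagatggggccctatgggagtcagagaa
The Hoxb8 window held 6 matches, 5 on the forward and 1 on the reverse strand, and the Hoxb4 window held 0. Among all 32851 promoter windows of 27025 genes, 40.0% held at least 1 match and 0.502% held at least 6. Of 24 windows of 22 Hox genes, 37.5% held at least 1 match, and Hoxd4, with 6, was the other window with as many as Hoxb8. G and C made up 42.3% of the Hoxb8 window and 58.0% of the Hoxb4 window, against a median of 52.7% over all windows. A consensus of NF-kB sites was searched in the same way and was in 0 of the Hox windows and in 5.80% of all windows. These matches describe letters in a window and show nothing about binding.

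Of the 39 Hox genes, 24 had at least 1 count in some library and 15 had 0 counts in all 7, which at the summed TMM-scaled depth allows a level of up to 0.0243 CPM each for counting error alone. Detection differed by cluster, with 9 of 11 HoxA, 9 of 10 HoxB, 3 of 9 HoxC and 3 of 9 HoxD genes having counts. It also differed by position in the cluster. Counts were found for 7 of 8 anterior genes (paralogue numbers 1 to 3), 13 of 15 central genes (4 to 8) and 4 of 16 posterior genes (9 to 13). The 15 genes without a count were Hoxa6, Hoxa13, Hoxb13, the 6 genes from Hoxc8 to Hoxc13, Hoxd1 and Hoxd9 to Hoxd13. None of the 4 genes numbered 13 and neither of the 2 numbered 12 had a count.

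HoxB transcripts made up most of the Hox counts and were higher after TNF. In the PBS libraries the HoxB genes summed to 23.3, 26.0 and 19.3 CPM, and in the TNF libraries to 91.1, 82.3, 85.7 and 82.9 CPM. The groups did not overlap, with means of 22.9 ± 3.40 CPM (SD, n = 3) and 85.5 ± 4.03 CPM (SD, n = 4), a ratio of 3.74. The HoxA genes summed to 3.83, 4.17 and 4.50 CPM with PBS and to 2.96, 2.59, 2.57 and 5.43 CPM with TNF, so that TNF replicate 4 lay above all PBS libraries and the other 3 TNF libraries below them. The HoxA means were 4.17 ± 0.337 CPM (SD, n = 3) and 3.39 ± 1.37 CPM (SD, n = 4). HoxB genes held 83.1 ± 2.54% of all Hox counts in the PBS libraries (SD, n = 3) and 95.5 ± 1.51% in the TNF libraries (SD, n = 4). In sorted bulk samples of this kind, fewer cells of a type and less RNA per cell cannot be told apart.

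A minimum level was needed for a test, near 10 counts in a library of median depth (0.551 CPM) in enough libraries, and 10 of the 39 Hox genes passed it: Hoxa3, Hoxa4 and Hoxb2 to Hoxb9. The PBS libraries were all past this level for 8 of them, while Hoxb2 and Hoxb7 were past it in 2 of 3 PBS and in all 4 TNF libraries. In edgeR's quasi-likelihood test with Benjamini-Hochberg adjustment over all 14329 tested genes, 6 of the 10 (Hoxb4 to Hoxb9) had an adjusted p under 0.05, 6 of them higher and 0 lower after TNF. Over all tested genes, 59.6% were called, 29.5% as higher and 30.1% as lower. In 7 of the 10 tested Hox genes every TNF library lay above every PBS library, which held for 29.9% of all tested genes, and in 0 of the 10 was every TNF library below every PBS library, which held for 30.9%. The median log2 fold change was 1.52 over the 10 tested Hox genes and 1.73 over the 8 tested HoxB genes, against 0.0017 over all tested genes. The plot of CPM by library shows them beside the other named Hox genes.

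**Figure D1:**
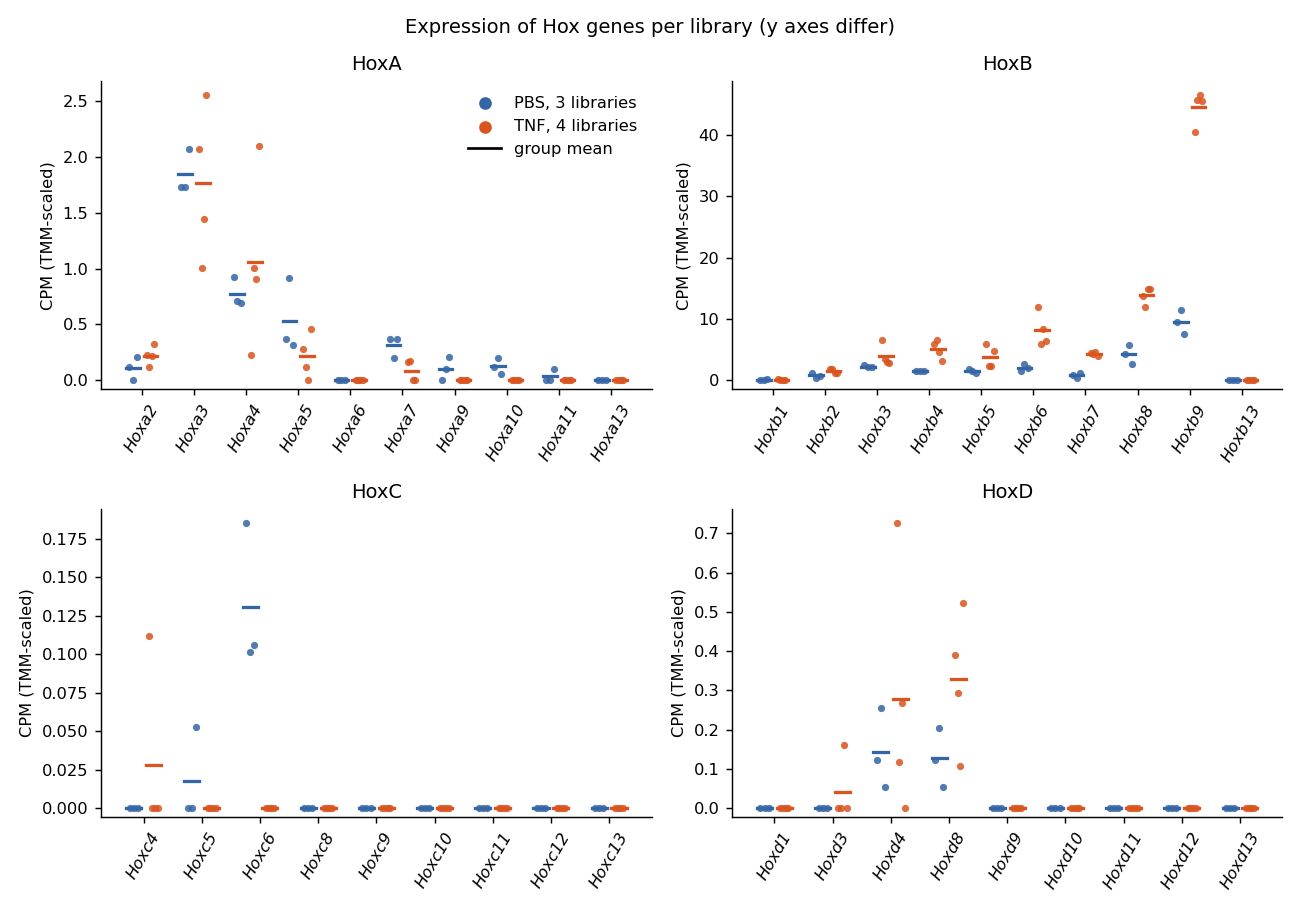
CPM of Hox genes by cluster in each of 3 PBS and 4 TNF libraries (points) with the group mean (line), on a linear y axis that differs between the panels. Every TNF library lay above every PBS library for Hoxb3 to Hoxb9, while the groups overlapped for Hoxb2, Hoxa3 and Hoxa4, and 15 genes were at 0 in every library.

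Hoxb9 (ENSMUSG00000020875, chr11:96162150-96167421), a posterior gene and the most abundant Hox transcript in every library, was at 9.57, 11.5 and 7.63 CPM in the PBS libraries and at 40.4, 45.8, 46.5 and 45.6 CPM in the TNF libraries. The lowest TNF library was thus far above the highest PBS library, and the spread within each group was small beside the gap. The means were 9.58 ± 1.96 CPM (SD, n = 3) and 44.6 ± 2.79 CPM (SD, n = 4). The log2 fold change was 2.22 ± 0.15 (SE), a 4.65-fold higher level (edgeR adjusted p = 3.30e-08), resting on 526 counts with PBS and 3067 with TNF. Of the 14329 tested genes, 4.49% had a larger log2 fold change.

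The 5 central HoxB genes, whose proteins are best known for specifying the trunk of the embryo and some of them for roles in blood cell precursors, were all higher after TNF. Hoxb8 was at 4.32, 5.75 and 2.7 CPM with PBS and at 13.7, 12.0, 14.9 and 14.8 CPM with TNF. Its groups were apart, with a log2 fold change of 1.70 ± 0.24 (SE) and an edgeR adjusted p of 3.24e-05. Hoxb7 was low with PBS, at 0.803, 0.407 and 1.22 CPM, and reached 4.53, 4.24, 4.65 and 3.99 CPM with TNF. The 4 TNF libraries lay close together, and the log2 fold change of 2.42 ± 0.40 (SE), 5.36-fold, was the largest among the tested Hox genes (edgeR adjusted p = 0.000143). It rests on 44 counts in the PBS libraries, and without PBS replicate 2 it was 2.09, below Hoxb9 (2.38) and Hoxb6 (2.25). Hoxb6 was at 1.48, 2.69 and 1.96 CPM with PBS and at 12.0, 5.95, 8.45 and 6.41 CPM with TNF. All TNF libraries were above all PBS libraries, with TNF replicate 1 the highest. The log2 fold change was 1.99 ± 0.32 (SE) with an edgeR adjusted p of 0.00011.

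Hoxb5 was at 1.79, 1.53 and 1.27 CPM with PBS and at 5.87, 2.41, 2.41 and 4.84 CPM with TNF. Its TNF libraries fell into a higher and a lower pair, TNF replicates 1 and 4 against 2 and 3, though each was above the PBS range. The log2 fold change of 1.34 ± 0.41 (SE) had an edgeR adjusted p of 0.0116, the weakest among the 6 called members. Hoxb5 was not called when the replicate number was added to the fit as a block (log2 fold change 1.10, edgeR adjusted p = 0.0625). In that fit TNF replicate 4, the only library with its number, does not bear on the change. Hoxb4, the member whose protein is known for expanding blood stem cells, was at 1.61, 1.47 and 1.48 CPM with PBS and at 5.98, 6.65, 4.65 and 3.20 CPM with TNF. The PBS libraries were nearly equal and the TNF libraries spread over a wider range without reaching them. The log2 fold change was 1.75 ± 0.34 (SE) with an edgeR adjusted p of 0.000477.

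Of the 3 anterior HoxB genes, which pattern the hindbrain in the embryo, Hoxb2 and Hoxb3 were tested and not called, and Hoxb1 was not tested. Hoxb3 was at 2.47, 2.19 and 2.12 CPM with PBS and at 6.54, 3.47, 3.00 and 2.81 CPM with TNF. Each TNF library was above each PBS library, but TNF replicate 1 stood well above the other 3, and the log2 fold change of 0.81 ± 0.36 (SE) had an edgeR adjusted p of 0.0682. Without that library the log2 fold change was 0.45 (edgeR adjusted p = 0.276). Hoxb2 was at 1.23, 0.458 and 0.742 CPM with PBS and at 1.79, 1.83, 1.23 and 1.18 CPM with TNF, so that the groups overlapped (log2 fold change 0.90 ± 0.51 SE, edgeR adjusted p = 0.143). Hoxb1, at the anterior end of the cluster, had 3 counts in the PBS libraries, all in PBS replicate 3, and 5 counts in the TNF libraries, all in TNF replicate 1. A ratio of 1.33 with a 95% interval of 0.258 to 8.53 (Clopper-Pearson, counting error only) leaves its direction undetermined at this depth.

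**Figure D2:**
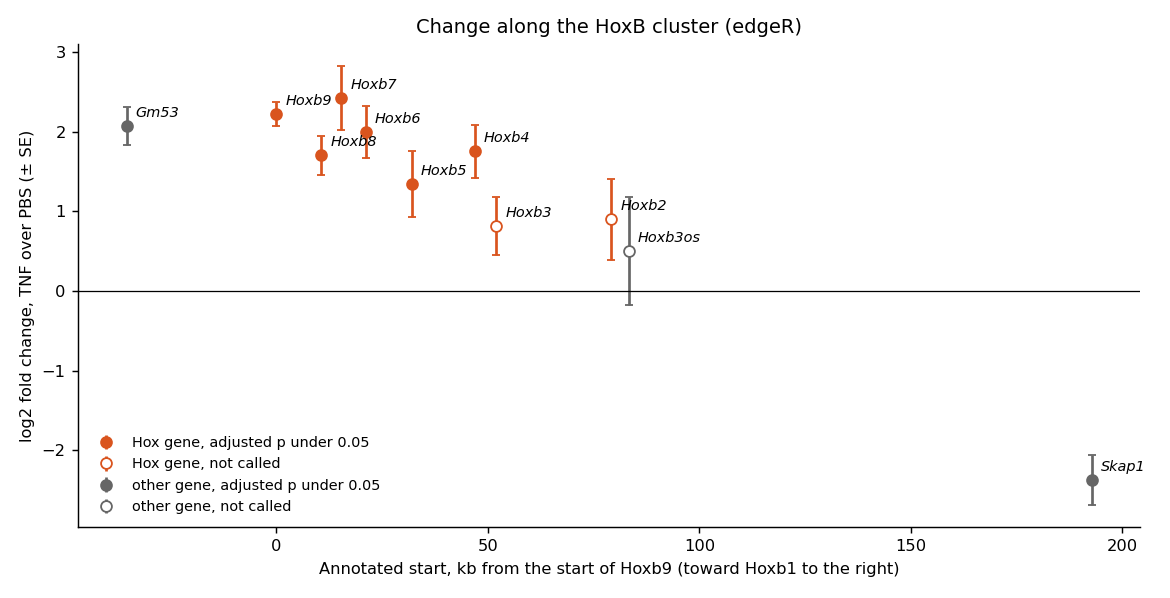
Log2 fold change of TNF over PBS (edgeR, points, with SE bars) for the 8 tested HoxB genes (orange) and 3 tested genes between or beside them (grey), against the distance of the annotated start from that of Hoxb9 in kb, with open points for genes not called. HoxB values ran from 2.42 at Hoxb7 to 0.81 at Hoxb3, Gm53 was at 2.07, Hoxb3os at 0.50 and Skap1, beyond the cluster, at -2.37.

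Along the HoxB cluster the smallest changes were those of the anterior genes Hoxb2 and Hoxb3. From Hoxb4 to Hoxb9 the change did not rise evenly, with Hoxb8 (1.70) near Hoxb4 (1.75) and Hoxb7 (2.42) above Hoxb9 (2.22). Across the 8 tested HoxB genes the paralogue number and the log2 fold change had a Pearson r of 0.81 and a Spearman rho of 0.74, given as a description, since the genes are neighbours and were counted in the same libraries. The level in the PBS libraries followed a like order. Per kilobase of annotated exon, the PBS level was 3.54 ± 0.723 CPM per kb for Hoxb9, 1.60 ± 0.574 for Hoxb8 and 0.882 ± 0.264 for Hoxb6 (SD, n = 3). Next came Hoxb4 at 0.593 ± 0.0285, Hoxb5 at 0.549 ± 0.0932, Hoxb7 at 0.524 ± 0.263, Hoxb3 at 0.440 ± 0.0362 and Hoxb2 at 0.233 ± 0.113 CPM per kb (SD, n = 3). The levels of Hoxb4, Hoxb5 and Hoxb7 did not differ beyond their spread, and neither did those of Hoxb7 and Hoxb3. Across the same 8 genes the paralogue number and the PBS level per kb had a Pearson r of 0.78 and a Spearman rho of 0.83.

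With TNF the order of levels per kb was Hoxb9 at 16.5 ± 1.03, Hoxb8 at 5.22 ± 0.507, Hoxb6 at 3.54 ± 1.19, Hoxb7 at 2.82 ± 0.193, Hoxb4 at 2.00 ± 0.595, Hoxb5 at 1.39 ± 0.628, Hoxb3 at 0.770 ± 0.340 and Hoxb2 at 0.432 ± 0.100 CPM per kb (SD, n = 4). Hoxb7 thus moved from below to above Hoxb4 and Hoxb5 in the order of means. Its TNF level and that of Hoxb6 did not differ beyond their spread. The per-kb values divide by annotated exon length, which can exceed that of the transcripts PCs use.

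Hoxb9 held a larger mean share of the HoxB counts after TNF. Its share was 41.1%, 44.3% and 39.6% in the PBS libraries and 44.4%, 55.6%, 54.2% and 55.1% in the TNF libraries, so that TNF replicate 1 was level with the highest PBS library and the other 3 were above it. Means were 41.7 ± 2.44% (SD, n = 3) and 52.3 ± 5.32% (SD, n = 4). The share of Hoxb3 ran from 8.40% to 10.99% with PBS and from 3.39% to 7.18% with TNF, with no overlap. Counts of Hoxb9 were 3.60 to 5.28 times those of Hoxb3 in the PBS libraries and 6.18 to 16.2 times in the TNF libraries. Against Hoxb8, its neighbour, the corresponding ratios were 2.01 to 2.82 and 2.95 to 3.81. The plot of shares shows that Hoxb9 and Hoxb8 together held the larger part of HoxB counts in each library.

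**Figure D3:**
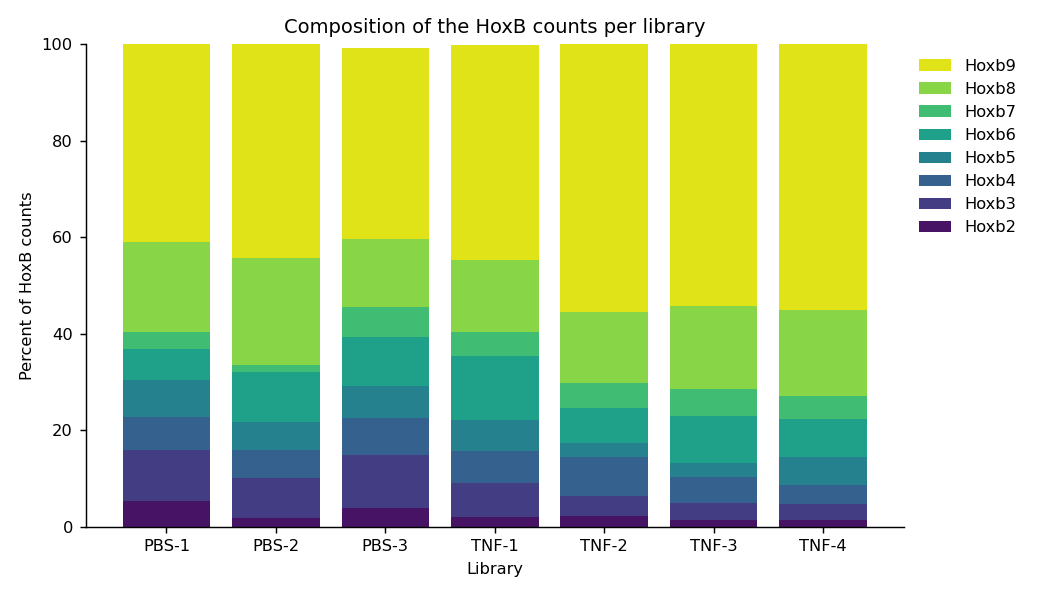
Share of the HoxB counts (percent) held by each tested HoxB gene in each library, as stacked bars, without the few counts of Hoxb1. The Hoxb9 share was 39.6% to 44.3% in the PBS libraries and 44.4% to 55.6% in the TNF libraries.

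Some HoxB exons are shared with antisense transcripts, and whether counting used strand is not stated. Of the annotated exon bases, 51.5% of Hoxb3 and 29.7% of Hoxb2 lay within the antisense gene Hoxb3os, and 30.8% of Hoxb6, 9.48% of Hoxb5 and 1.55% of Hoxb9 within Hoxb5os, so counts of these pairs are uncertain. Hoxb4, Hoxb7 and Hoxb8 shared 0 exon bases with other annotated genes. Hoxb3os itself had 21 counts with PBS and 38 with TNF (log2 fold change 0.50 ± 0.67 SE, edgeR adjusted p = 0.546), and Hoxb5os had 0 and 5 counts.

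HoxA genes, which are used along the gut and limbs, were counted at low levels. Hoxa3, an anterior gene needed for the thymus and parathyroid, was at 1.73, 1.73 and 2.07 CPM with PBS and at 2.07, 1.00, 1.44 and 2.55 CPM with TNF. The groups overlapped (log2 fold change -0.06 ± 0.44 SE, edgeR adjusted p = 0.908). Hoxa4, its neighbour, was at 0.926, 0.712 and 0.689 CPM with PBS and at 0.224, 1.00, 0.909 and 2.09 CPM with TNF, where TNF replicates 1 and 4 lay on opposite sides of the PBS libraries (log2 fold change 0.43 ± 0.65 SE, edgeR adjusted p = 0.585).

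The other 7 detected HoxA genes were below the level needed for the test, and counts of those named are given as sums over the group with ratios that cover counting error only. Hoxa5, a gene with known roles in lung and gut development, had 30 counts with PBS, 18 of them in PBS replicate 2, and 14 with TNF. Its TNF over PBS ratio on TMM-scaled library sizes was 0.371, with a 95% Clopper-Pearson interval of 0.182 to 0.722. For Hoxa7 the counts were 17 and 6 (ratio 0.281, interval 0.0906 to 0.746), and 20.3% of its exon bases lay within the antisense gene Hoxaas3. For Hoxa2 they were 6 and 15 (ratio 1.99, interval 0.729 to 6.25).

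No count of a posterior HoxA gene was found in any TNF library, where a count of 0 allows up to 0.0436 CPM per gene over the group. In the PBS libraries Hoxa9 had 0, 2 and 4 counts, Hoxa10 had 2, 4 and 1, and Hoxa11 had 0, 0 and 2. The 95% Clopper-Pearson interval of the PBS over TNF ratio began at 1.48 for Hoxa9 and at 1.81 for Hoxa10, counting error only, and Hoxa11 was under 3 counts in both groups. The 14 members with counts that were below the level for testing were also fitted without a filter, and none of them had an adjusted p under 0.05 in that edgeR fit (Hoxa10 0.0814). The posterior HoxA comparison thus rests on 15 counts in 3 PBS libraries.

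HoxC and HoxD genes were near the limit of detection. Hoxc6 had 3, 2 and 2 counts in the PBS libraries and 0 in each TNF library, where the interval of the PBS over TNF ratio began at 1.81 (edgeR adjusted p = 0.079 without a filter). Hoxc5 had 1 count with PBS and 0 with TNF, and Hoxc4 had 0 and 2. Hoxd8 had 2, 4 and 1 counts with PBS and 7, 5, 2 and 8 with TNF, a ratio of 2.50 with an interval of 1.03 to 6.93. Hoxd4 had 8 and 20 counts (ratio 1.99, interval 0.839 to 5.22), 13 of the 20 in TNF replicate 1, and Hoxd3 had 0 and 3 counts in a single TNF library. Exons of Hoxd3 and Hoxd4 overlap each other, so these counts could be split between them. All HoxD genes together summed to 0.270 ± 0.177 CPM (SD, n = 3) with PBS and 0.647 ± 0.319 CPM (SD, n = 4) with TNF.

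Read by paralogue number, the members called higher after TNF were HoxB members of groups 4 to 9. Group 9 had 532 counts with PBS and 3067 with TNF, of which Hoxa9 held 6 with PBS and 0 with TNF. Group 7 had 61 counts with PBS and 307 with TNF, of which Hoxb7 held 44 and 301 and Hoxa7, which was not tested, 17 and 6. Groups 10 and 11 had 7 and 2 counts with PBS and 0 with TNF.

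Among the transcripts that lie between or beside the Hox genes, the long non-coding RNA Gm53 (chr11:96126719-96160566), between Hoxb13 and Hoxb9, followed the HoxB genes. It was at 2.41, 4.12 and 4.45 CPM with PBS and at 19.5, 14.1, 13.7 and 14.5 CPM with TNF. The log2 fold change was 2.07 ± 0.24 (SE, edgeR adjusted p = 4.94e-06), close to the 2.22 of Hoxb9, the next gene along the chromosome. Of 69 such genes listed from the annotation, 53 were in the count table and 8 were tested, with 2 higher, 3 lower and 3 not called, where 29.5% of all tested genes were higher and 30.1% lower, so the 5 called are near the 59.6% called over all tested genes. On the other side of the cluster, beyond Hoxb1, Skap1, which encodes an adaptor of T cell signalling, was lower, at 5.43 ± 0.710 CPM with PBS and 1.04 ± 0.0911 CPM with TNF (SD; log2 fold change -2.37 ± 0.31 SE; edgeR adjusted p = 1.79e-05).

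In the HoxA cluster the antisense transcript Hoxaas3, which overlaps exons of Hoxa3 and Hoxa7, had 29, 47 and 26 counts in the PBS libraries and 5, 8, 13 and 3 in the TNF libraries. It is among the genes called lower, but it reached the level needed for the test in 3 of 3 PBS and 1 of 4 TNF libraries, so that it was tested only because of its PBS level. It and Skap1 are outside the rule for named genes and were chosen after their values were seen. Beside HoxD, Mtx2, which encodes a mitochondrial outer membrane protein, rose from 24.8 ± 1.88 to 47.3 ± 6.28 CPM (SD, log2 fold change 0.93 ± 0.13 SE, edgeR adjusted p = 2.55e-05). Beside HoxC, Calcoco1, an autophagy receptor gene, fell from 33.5 ± 7.23 to 16.7 ± 1.57 CPM (SD, log2 fold change -1.01 ± 0.15 SE, edgeR adjusted p = 7.29e-05). Of the microRNA hairpin genes inside the clusters, Mir196a-1, which lies within the span of Gm53, had 3 counts with PBS and 16 with TNF, Mir10a had 0 and 2, and Mir10b, Mir196b, Mir196a-2 and Mir615 had 0 in every library. Counts over a hairpin gene can come from a host transcript and do not measure the mature microRNA.

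Hox proteins bind DNA together with cofactors of the TALE class (PBX, MEIS and PKNOX proteins), and genes of this class were called in both directions. Of 11 listed genes 9 were tested, with 3 higher, 5 lower and 1 not called, and a median log2 fold change of -0.84, where 59.6% of all tested genes were called, 29.5% higher and 30.1% lower. Pbx2 (log2 fold change -0.98 ± 0.11 SE), Pbx3 (-1.43 ± 0.15 SE) and Pknox1 (-1.35 ± 0.15 SE) fell, with edgeR adjusted p of 2.92e-06, 2.85e-06 and 4.71e-06. Meis2, named after its values were seen, is among the genes called lower and had 65 counts in all with PBS and 3 with TNF, but it reached the level needed for the test in 3 of 3 PBS and 0 of 4 TNF libraries, so that it was tested only because of its PBS level. Meis1 had 10 counts, all in PBS replicate 1, and was not tested.

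In the other direction, Meis3 rose from 9.70 ± 1.22 to 17.4 ± 1.36 CPM (SD, log2 fold change 0.84 ± 0.16 SE, edgeR adjusted p = 0.00037). Tgif1, which encodes a TALE repressor of TGF-beta and retinoid signalling, rose from 35.5 ± 2.32 to 63.4 ± 3.83 CPM (SD, log2 fold change 0.83 ± 0.10 SE, edgeR adjusted p = 1.15e-05).

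Regulators of Hox genes were read from a list of 34 genes holding Cdx factors, Polycomb and Trithorax group members and retinoic acid pathway genes. Of these 28 were tested, with 4 higher, 17 lower and 7 not called and a median log2 fold change of -0.43, where 59.6% of all tested genes were called, 29.5% higher and 30.1% lower. The Cdx genes, whose proteins activate Hox genes in the developing gut, did not pass the test. Cdx1 was at 167.8, 174.0 and 160.6 CPM with PBS and at 201.5, 207.1, 199.2 and 178.7 CPM with TNF. These groups did not overlap, and the log2 fold change was 0.23 ± 0.10 (SE) with an edgeR adjusted p of 0.0574. Cdx2 was at 97.1 ± 4.02 and 103.5 ± 7.46 CPM (SD, log2 fold change 0.09 ± 0.10 SE, edgeR adjusted p = 0.433). Cdx4 had 0 counts.

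Several genes of the Polycomb group, whose complexes keep Hox genes silent, fell. Ezh2, the methyltransferase of Polycomb repressive complex 2, was at 33.0, 36.4 and 35.9 CPM with PBS and at 10.9, 6.65, 9.74 and 12.2 CPM with TNF (log2 fold change -1.83 ± 0.17 SE, edgeR adjusted p = 7.99e-07). Its paralogue Ezh1 fell by 1.14 ± 0.15 (SE) on the log2 scale (edgeR adjusted p = 2.10e-05), and Cbx2, a chromodomain subunit of Polycomb repressive complex 1, fell by 2.45 ± 0.26 (SE, edgeR adjusted p = 2.62e-06). Eed, another core subunit of the complex that holds Ezh2, moved the other way, from 25.2 ± 1.87 to 55.5 ± 6.88 CPM (SD, log2 fold change 1.14 ± 0.13 SE, edgeR adjusted p = 3.41e-06). On the activating side, Kmt2a, a histone methyltransferase that maintains Hox expression, fell by 0.97 ± 0.17 on the log2 scale (SE, edgeR adjusted p = 0.000243), and Men1, its partner, fell by 1.08 ± 0.13 (SE, edgeR adjusted p = 7.16e-06). The other 3 genes of the list called higher, named after their values were seen, were Wdr5, Phc2 and Aldh1a1, with log2 fold changes of 0.81 ± 0.11, 0.78 ± 0.10 and 0.99 ± 0.26 (SE).

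**Figure D4:**
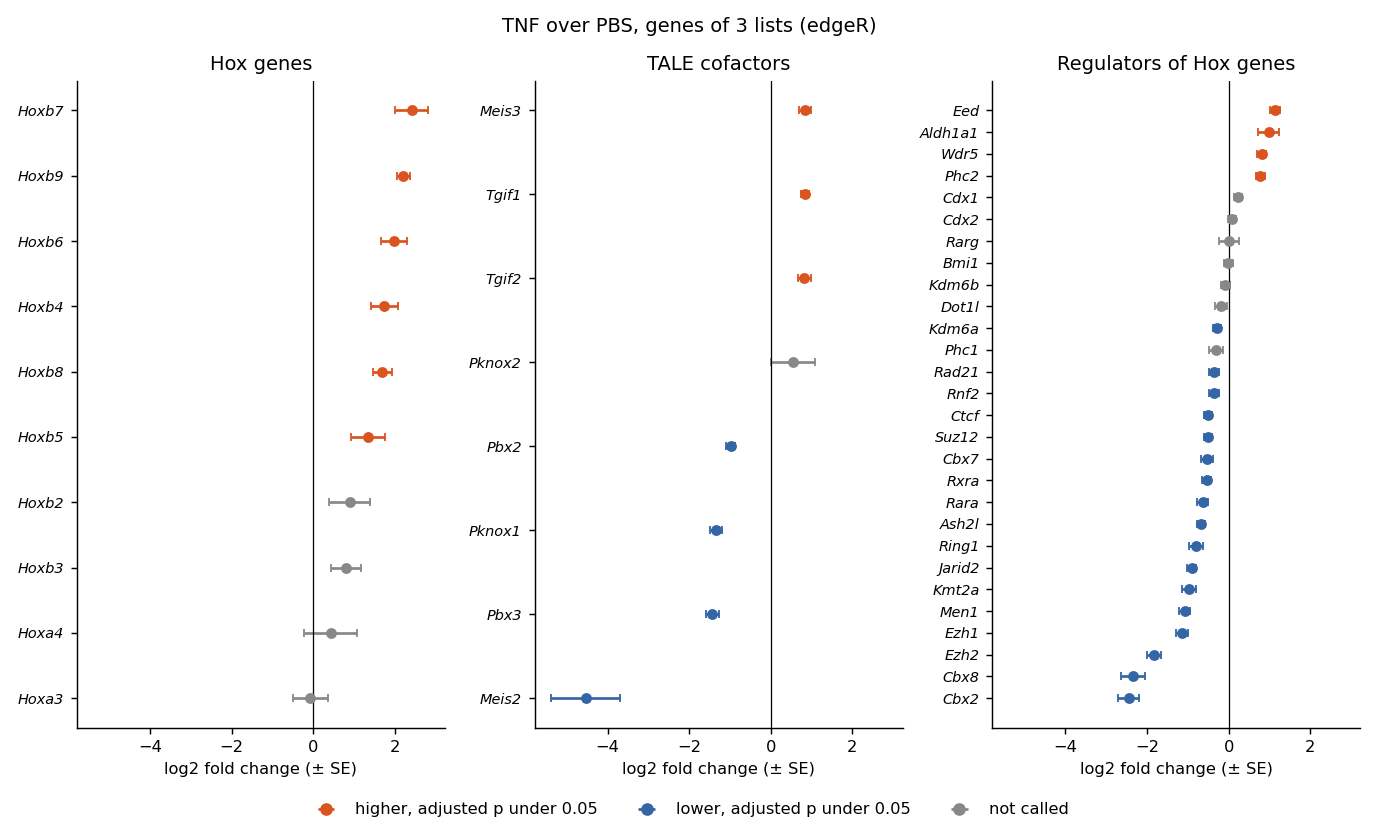
Log2 fold change of TNF over PBS (edgeR, points, with SE bars) for tested Hox genes, TALE cofactors and regulators of Hox genes, coloured by call. In the Hox panel 6 genes were higher and 0 lower, in the cofactor panel Meis3, Tgif1 and Tgif2 were higher and Pbx2, Pbx3, Pknox1 and Meis2 lower, and in the regulator panel 4 were higher and 17 lower.

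Genes that mark position along the small intestine differed between the same groups. The list was drawn up with earlier results of these data known and is not independent of them. Of 8 genes of the proximal intestine 6 were tested, with 0 higher, 5 lower (1 of them, Pdx1, past the level needed for the test in 0 of 4 TNF libraries) and 1 not called, where 29.5% of all tested genes were higher and 30.1% lower. The whole list summed to 177.8 to 215.5 CPM with PBS and to 33.5 to 45.6 CPM with TNF. Gata4, a transcription factor of the proximal intestinal epithelium, was at 62.2, 66.7 and 59.0 CPM with PBS and at 9.22, 7.65, 5.99 and 9.94 CPM with TNF (log2 fold change -2.94 ± 0.16 SE, edgeR adjusted p = 3.68e-09). Cybrd1, a ferric reductase of the duodenum, fell from 118.7 to 25.9 CPM (log2 fold change -2.20 ± 0.16 SE, edgeR adjusted p = 1.28e-07). Genes of the distal intestine lay in both directions. Of 7 listed, 2 were tested: Osr2, a transcription factor, was lower (log2 fold change -0.94 ± 0.15 SE, edgeR adjusted p = 0.000125), and Slc51b, a subunit of the bile acid exporter, was higher, with 23 counts in all with PBS and 276 with TNF (log2 fold change 3.26 ± 0.51 SE, edgeR adjusted p = 7.84e-05), though it reached the level needed for the test in 1 of 3 PBS libraries. Of the 5 that were not tested, the bile acid importer gene Slc10a2 had 0 and 34 counts, Fgf15 2 and 5, Cubn 136 and 0, Fabp6 39 and 2 and Slc51a 27 and 0. PBS replicate 2 alone held 123 of the 136 counts of Cubn, 33 of the 39 of Fabp6 and 24 of the 27 of Slc51a. These 5, Slc51b and Pdx1 were named after their values were seen. The whole list summed to 17.2 to 27.8 CPM with PBS and to 13.9 to 14.5 CPM with TNF, and without Osr2 to 0.803 to 9.97 CPM and 4.25 to 4.83 CPM. The segment from which each mouse's cells came is not given, and its part in the HoxB result was not tested.

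Markers of other cells were compared in the same libraries. The 12 markers of mesenchyme and smooth muscle summed to 1.98 to 2.39 CPM with PBS and to 0.471 to 1.85 CPM with TNF. With PBS most of this sum was Pdgfrb, a pericyte and fibroblast receptor gene and the only gene of the 12 that was tested, with 99 counts in the PBS libraries and 37 in the TNF libraries. The other 11 markers had 18 and 37 counts together, and summed to 0.106 to 0.559 CPM with PBS and to 0.353 to 0.783 CPM with TNF. Among them Col1a2 and Lum had 0 counts throughout, Col1a1 had 7 and 7 and Acta2 had 0 and 4. The part of these cells in the HoxB result was not tested. The sums of endothelial markers (5 genes, 1 at 0 counts) were 2.23 to 7.02 and 1.37 to 1.66 CPM, nearly all of it Tek, without which they were 0 to 0.318 and 0 to 0.196 CPM. Leukocyte markers (7 genes, 2 at 0 counts) summed to 13.03 to 28.1 and 9.95 to 15.2 CPM, and without Ptprc to 1.67 to 2.91 and 2.51 to 5.03 CPM. Enteric glia and neuron markers (6 genes, 2 at 0 counts) summed to 16.1 to 26.9 and 13.5 to 25.8 CPM, and without Ret to 3.52 to 4.18 and 0.353 to 1.28 CPM.

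The summed markers of enterocytes, goblet cells, tuft cells and stem cells were lower in every TNF library than in any PBS library. Enterocyte markers (6 genes, 4 called lower) summed to 572.1 to 693.0 CPM with PBS and to 237.9 to 311.7 CPM with TNF, nearly all of it Vil1, without which the sums were 9.76 to 56.5 and 1.06 to 3.80 CPM. Tuft cell markers (5 genes, 5 called lower) summed to 1271 to 2078 and 218.7 to 577.6 CPM, and stem cell markers (4 genes, 4 called lower) to 2404 to 3529 and 956.8 to 1587 CPM, the latter mostly Olfm4 (without it, 369.9 to 407.0 and 141.8 to 178.8 CPM). Goblet cell markers (5 genes, 4 called lower) summed to 6538 to 12657 and 5776 to 6511 CPM, and without Muc2 to 2420 to 5684 and 219.8 to 249.6 CPM, and enteroendocrine markers (5 genes, 1 called lower), whose groups overlapped, to 12.8 to 66.7 and 10.1 to 17.5 CPM. None of the markers of these 5 cell types was called higher, where 30.1% of all tested genes were called lower, and of those called lower 3 enterocyte markers and 1 marker each of goblet, tuft and stem cells reached the level needed for the test in fewer than all 4 TNF libraries. What part the lower levels of these cells' transcripts have in the HoxB result was not tested.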

How the data were processed

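Total RNA of sorted PCs was sequenced on the Element AVITI platform (single-end). The authors deposited raw counts per gene, with 1 column per library and no normalization. The submitters' processing notes name FastQC, Trimmomatic 0.39, STAR 2.7.10a and DESeq2 and the builds mm10 and mm39 without roles. For the counting program, the annotation and the strand setting, nothing was stated. Symbols and coordinates were joined by identifier from GENCODE M39 on GRCm39 (54749 of 55414 identifiers matched), and promoter windows were taken from RefSeq (GRCm38.p6).

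TNF was compared with PBS over all 7 libraries, without covariates, by the robust quasi-likelihood test of edgeR 4.0.16 in R 4.3.3 (two-sided), after filterByExpr (minimum count 10) and TMM scaling, with Benjamini-Hochberg adjustment over 14329 genes and a threshold of 0.05. SEs were derived from the fitted change and its F statistic. A run of the procedure on simulated data changed far fewer genes than were called here, and is not used as support. Intervals and floors (3 counts) cover counting error only, as reads carried no stated molecular identifiers. Within groups every pair of libraries differed beyond counting noise (chi-square per degree of freedom at least 17.0). The alternatives were DESeq2 1.42.0, other scalings and filters, a replicate block and leaving out each library. Members and lists were chosen with earlier results of these data known. Genes named from the other lists were those called, with groups apart and a mean of at least 5 CPM, up to the 6 largest changes per list, plus Cdx1, Cdx2, Meis1 and Tnfaip3. Some genes counted in the lists are not reported here by name or plotted. The motifs searched were TTTAT and an NF-kB consensus, on both strands.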

Additional observations from a re-analysis of the deposited data

Results flagged for a closer look

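Among 37 values examined in the TNF group, 4 had a library far from the other 3 by Dixon's criterion, where chance gives about 1 in 20. TNF replicate 1 was the library in 3 of them. Its Hoxb9 level was 40.4 CPM against 45.6 to 46.5 CPM in the other TNF libraries, all of them above the PBS libraries. Its Gm53 level was 19.5 CPM against 13.7 to 14.5 CPM. Its summed HoxC level was 0.112 CPM, from 2 counts of Hoxc4, against 0 in the others. With the others at 0, any count at all gives this flag, so the rate of 1 in 20 does not apply to it. TNF replicate 4 had a summed HoxA level of 5.425 CPM against 2.57 to 2.96 CPM in the others.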

How the results depend on the processing

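Hoxb4, Hoxb6, Hoxb7, Hoxb8 and Hoxb9 kept their direction and their call in each of 14 alternatives, with log2 fold changes of 1.60 to 1.90, 1.75 to 2.25, 2.09 to 2.85, 1.45 to 1.99 and 2.06 to 2.38. Hoxb5 (1.07 to 1.52) was called in 13 and not under the replicate block (1.10, edgeR adjusted p = 0.0625), so 5 Hox genes were called there. TNF replicate 4 is the only library with its number, so under the block it does not bear on the change after TNF. Deviations of same-numbered libraries from their group means correlated at -0.367, -0.0379 and -0.212, against -0.247 to 0.403 for libraries with different numbers. These values gave no sign of pairing by number, but cannot exclude a shared day or run, as days are not stated. With the block 3553 genes were higher and 3578 lower, against 4229 and 4314 without it. Hoxb2 (0.61 to 1.33) and Hoxb3 (0.45 to 0.93) were called in none. Hoxa3 reversed to 0.02 without PBS replicate 3, 0.13 without TNF replicate 2 and 0.01 without TNF replicate 3 (leave-one-out range -0.30 to 0.13). Hoxa4 reversed to -0.26 under the block and -0.13 without TNF replicate 4 (leave-one-out range -0.13 to 0.77). TNF replicate 4, in which Hoxa4 was at 2.09 CPM against 0.224 to 1.00 CPM in the other TNF libraries, does not bear on the change in either fit. The cause of the Hoxa3 reversals was not tested, and neither gene was called in any alternative. Under scaling by total counts only, the median of all genes moved to -0.16, 3147 genes were higher and 4614 lower, Cdx2 reversed to -0.08, and the 6 Hox calls remained. Cdx1 passed the threshold in DESeq2 (0.23, adjusted p = 0.0351) and without TNF replicate 4 (0.26, adjusted p = 0.0377). Without a filter 11 regional genes were called against 7, more genes being tested. Depth limits the 14 members with counts that were not tested.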
